A study of Homo sapiens with 6 samples.

Results

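The genes described are 10 of the MHC class II system: the chain genes HLA-DRA, HLA-DPA1, HLA-DPB1, HLA-DQB1, HLA-DMA, HLA-DMB and HLA-DOA, the invariant chain gene CD74, and the regulators CIITA and RFX5. Every probe set that the array annotation assigns to exactly 1 gene symbol, and that symbol among these 10, was taken as a member. This gave 29 probe sets of the 54613 that were fitted, and 10 genes of 19775.

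MHC class II molecules are pairs of an alpha and a beta chain that show peptides from the endosome to CD4+ T cells. DR, DP and DQ are the classical pairs at the cell surface. CD74 holds new pairs together and blocks their groove until proteases cut it down, HLA-DM then exchanges the remaining fragment for a peptide, and HLA-DO inhibits HLA-DM. Promoters of these genes carry an X box, bound by the RFX complex to which RFX5 belongs, and a Y box, bound by NF-Y. CIITA binds no DNA itself and is recruited to these factors, and its own level is known to set class II transcription in most cells. Interferon gamma induces CIITA in monocytes and macrophages.

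The cells were THP1, an established line of monocytic character from an acute myeloid leukaemia, and the array was the Affymetrix U133 Plus 2.0. In 3 samples they had grown for 48 hours on a coating of Dll4-Fc, a fusion of the Notch ligand Delta-like 4 with the Fc part of an antibody, and 3 samples were untreated. The sample labels give the coating as 60 nM and the protocol gives 30 nM, and the protocol calls the control vehicle. No sample is labelled as coated with Fc alone, so an effect of the Fc part and of Dll4 cannot be told apart. All samples come from this single cell line, and the labels do not say whether those of a group were separate cultures, so the p-values rest on a spread between samples that may be technical. Values are log2 of the deposited RMA intensities. Differences are Dll4-Fc minus untreated with their standard error, and a gene or probe set is said to have risen or fallen where limma's test gave a Benjamini-Hochberg adjusted p under 0.05 over all features of the fit.

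Promoter stretches of 60 bases are given for some of these genes. Promoter windows of RefSeq (GRCh38.p14, 250 bases before to 50 after the start) were found for 8 of the 10 genes, in 11 windows, and none was used for HLA-DRA and CIITA. All stretches are written 5′ to 3′ on the gene's strand. Capitals mark the letters AGNNACNGA, the core of the X box in several of these genes, and ATTGG, the core of the Y box, or its reverse complement CCAAT. These letters were chosen with the sequences in view. The first pair belongs to the DM genes, which rose, and the next to HLA-DQB1 and HLA-DOA, which were not called higher. The last 3 are of HLA-DPA1, HLA-DPB1 and CD74. RFX5 is not shown, though a window of it held CCAAT. Its windows held no match to the X letters, nor did those of HLA-DPB1 and CD74.
HLA-DMA, chr6:32953161-32953220, minus strand: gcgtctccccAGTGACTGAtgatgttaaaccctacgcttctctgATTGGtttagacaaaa
HLA-DMB, chr6:32941067-32941126, minus strand: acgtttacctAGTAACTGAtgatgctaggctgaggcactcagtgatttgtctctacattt
HLA-DQB1, chr6:32666729-32666788, minus strand: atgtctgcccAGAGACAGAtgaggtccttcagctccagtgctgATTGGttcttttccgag
HLA-DOA, chr6:33009643-33009702, minus strand: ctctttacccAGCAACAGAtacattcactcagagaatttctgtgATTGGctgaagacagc
HLA-DPA1, chr6:33073699-33073758, minus strand: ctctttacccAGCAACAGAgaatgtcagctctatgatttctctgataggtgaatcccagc
HLA-DPB1, chr6:33075846-33075905, plus strand: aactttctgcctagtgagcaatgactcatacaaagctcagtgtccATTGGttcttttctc
CD74, chr5:150412949-150413008, minus strand: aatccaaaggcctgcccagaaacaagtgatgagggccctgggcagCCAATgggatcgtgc

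In HLA-DMA and HLA-DOA the X letters were followed by the Y letters after a gap of 25 bases, and in HLA-DQB1 after 24. An X match followed by a Y match on the gene's strand within 15 to 35 bases occurred in 0.171% of all 35116 promoter windows. Taken singly the letters are common: 15.3% of windows held the X letters and 34.6% the Y letters on either strand. Among the members the arrangement was thus present in HLA-DMA, which rose, in HLA-DOA, for which no change was called, and in HLA-DQB1, whose lower values rest on probe sets shared with other transcripts. Among the listed class II genes outside the members it was also present in HLA-DRB1 and HLA-DQA1, for which no change was called. HLA-DRB5 held it too, but had no probe set assigned to it alone. No match in a window says only that these letters are not there.

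In cells on Dll4-Fc, HLA-DRA, HLA-DPA1, HLA-DMA, HLA-DMB and CD74 rose 1.89-fold to 2.47-fold by the probe set with the highest signal. RFX5 fell to 0.787 of the untreated level and HLA-DQB1 to 0.757. HLA-DPB1, HLA-DOA and CIITA did not pass the test. With 1 probe set per gene, 5 of the 10 genes rose, against 11.6% of all genes, and 2 fell, against 15% (26.6% of all genes passed in either direction). Their median difference was 0.60, and that of all genes was -0.01. Counted by probe set, 7 of 29 rose (7.21% of all probe sets) and 4 fell (9.26%, or 16.5% in either direction), with a median of 0.02 beside -0.02 for all probe sets. The groups did not overlap in 13 of the 29 probe sets, 8 higher and 5 lower on Dll4-Fc, beside 33.2% of all probe sets (14.1% higher and 19% lower). By gene they did not overlap in 7 of 10, 5 higher and 2 lower, beside 41.6% of all genes (18.2% higher and 23.5% lower). In these bulk samples more cells with class II RNA and more RNA per cell cannot be told apart.

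**Figure D1:**
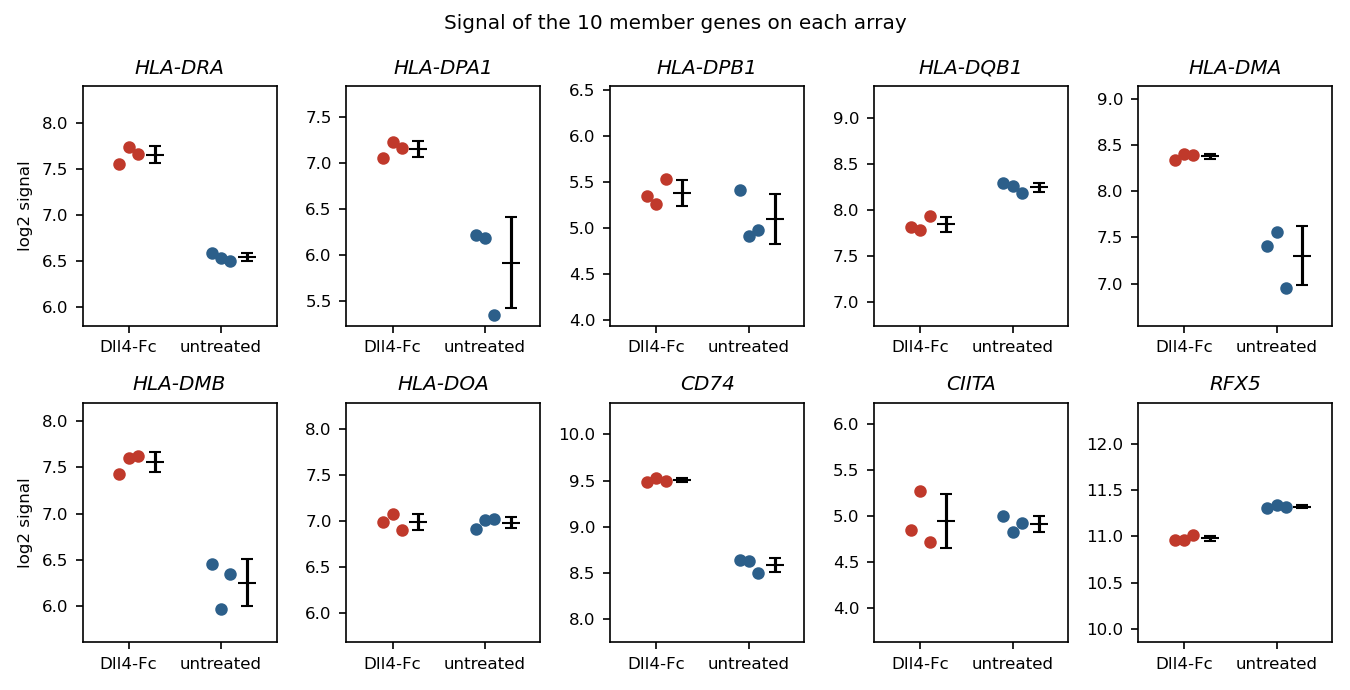
Log2 signal of the 10 genes on each array (points; 3 arrays per group, Dll4-Fc left and untreated right), with the group mean and SD as a bar beside them; each panel spans the same range on the log2 axis. The groups do not overlap in 7 panels, and HLA-DPB1, HLA-DOA and CIITA overlap.

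Among the classical alpha chains, HLA-DRA, which pairs with the DRB chains, had log2 signals of 7.56, 7.74 and 7.66 on Dll4-Fc, against 6.59, 6.54 and 6.50 in untreated cells. Every Dll4-Fc array lay about 1 log2 unit above every untreated array. The difference was 1.11 ± 0.07, or 2.16-fold (95% interval 0.94 to 1.27 on the log2 scale, adjusted p = 3.7e-05). The other HLA-DRA probe set, read by probes shared between transcripts, gave 1.03 ± 0.14 (adjusted p = 0.00167). HLA-DPA1, the alpha chain of DP, had 7.05, 7.22 and 7.16 on Dll4-Fc, against 6.22, 6.18 and 5.35 in untreated cells. The groups did not overlap, and untreated replicate 3 lay below the other two. The difference was 1.23 ± 0.21 (2.34-fold, adjusted p = 0.00609), and without untreated replicate 3 it was 0.95 in the fit over genes. Its second probe set rose by 0.66 ± 0.09 (adjusted p = 0.00212), while its last one, among the dimmest 15.1% of probe sets, differed by 0.29 ± 0.14 (adjusted p = 0.208).

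Neither classical beta chain among the members rose by this test. HLA-DPB1, the partner of HLA-DPA1, had 5.35, 5.26 and 5.53 on Dll4-Fc, against 5.41, 4.92 and 4.98 in untreated cells. The groups overlapped, with untreated replicate 1 among the Dll4-Fc arrays, and the difference was 0.28 ± 0.14 (adjusted p = 0.241). Without that array it was 0.43 and passed the test (adjusted p = 0.0203 over genes). A second HLA-DPB1 probe set, at 3.93, 3.80 and 3.75 on Dll4-Fc against 3.41, 3.67 and 3.48 in untreated cells, showed no overlap and a difference of 0.31 ± 0.09 (adjusted p = 0.0518). Both lay below the median probe set signal of 5.70. Within each array, HLA-DPA1 exceeded HLA-DPB1 by 1.76 ± 0.17 on Dll4-Fc and by 0.82 ± 0.44 in untreated cells (SD, n = 3 arrays each), and a 2-sided exact permutation test of that gap gave p = 0.1, the smallest value that 3 arrays against 3 allow (0.125 after adjustment over the 5 pairs of members compared). This design cannot reach 0.05, so none of these gaps is called a difference in response, and a gap between 2 probe sets says nothing of the genes' relative levels. With each gene's probe sets averaged the responses of HLA-DPA1 and HLA-DPB1 differed by 0.43, beside 0.95 by the brightest ones. Of the 5 pairs, that of CIITA and RFX5 is not given, since CIITA was dim.

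HLA-DQB1, the beta chain of DQ, was read by 7 probe sets with differences from -0.41 to 0.02. By the probe set with the highest signal it had 7.81, 7.78 and 7.94 on Dll4-Fc, against 8.29, 8.26 and 8.18 in untreated cells. The Dll4-Fc arrays lay below all untreated arrays, with a difference of -0.40 ± 0.07 (adjusted p = 0.00667). A second probe set fell by 0.34 ± 0.08 on the log2 scale (adjusted p = 0.022), and another was lower without overlap at -0.41 ± 0.12 (adjusted p = 0.0517). These 3 carry IDs ending in _x_at, which Affymetrix gives to sets whose probes can also bind other transcripts. Of the 2 HLA-DQB1 probe sets without such an ID, the brighter had 7.09, 7.24 and 7.57 on Dll4-Fc, against 7.76, 7.77 and 7.30 in untreated cells. There the groups overlapped, with a difference of -0.31 ± 0.16 (adjusted p = 0.265). The fall of HLA-DQB1 therefore rests on shared probe sets, and without those the gene did not pass (adjusted p = 0.23 over genes).

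No call was made for class II genes outside the 10 members, of which 8 of 12 listed were measured, beside 26.6% of all genes called. Of these 8, 6 lay below the median probe set signal, so the lack of a call does not show that they did not respond. HLA-DRB1, the partner chain of HLA-DRA, read by a probe set with an _x_at ID, had 10.96, 11.07 and 11.04 on Dll4-Fc, against 10.99, 10.88 and 10.97 in untreated cells. The groups overlapped, and the difference of 0.08 ± 0.07 had a 95% interval of -0.07 to 0.24 (adjusted p = 0.511), while that of HLA-DRA was 0.94 to 1.27. The gap between HLA-DRA and HLA-DRB1 within an array, a pair chosen after the values were seen, was -3.37 ± 0.04 on Dll4-Fc and -4.40 ± 0.06 in untreated cells (SD, n = 3 arrays each; 2-sided exact permutation p = 0.1, the smallest possible). Another 6 probe sets are annotated to several class II genes at once, and their differences ran from -0.01 to 0.24. By limma 0 of these 6 passed, beside 16.5% of all probe sets, and 0 of them even at an unadjusted p under 0.05. Of 14 probe sets of the other class II loci 0 passed as well, and 1 had an unadjusted p under 0.05. That probe set reads HLA-DOB, the beta chain of HLA-DO, with a difference of 0.31 ± 0.13 (adjusted p = 0.166). HLA-DQA1, the alpha chain that pairs with HLA-DQB1, differed by 0.04 ± 0.07 in its brightest probe set, which lay at 4.98 ± 0.09 on Dll4-Fc and 4.94 ± 0.05 in untreated cells (SD, n = 3), below the median signal.

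**Figure D2:**
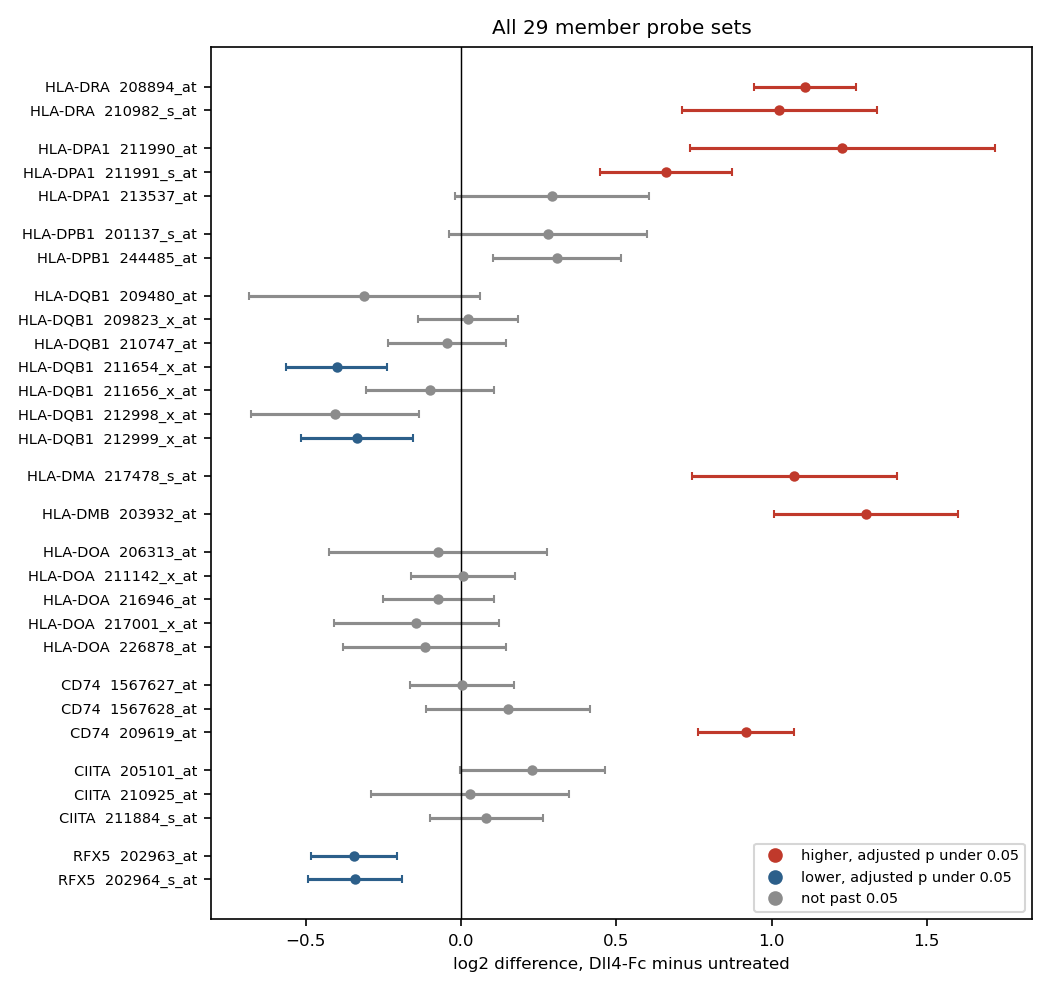
Difference between Dll4-Fc and untreated arrays on the log2 scale for each of the 29 probe sets (points), with its 95% interval from limma (bars; 3 arrays per group), grouped by gene. The 7 probe sets that rose belong to 5 genes, and the 4 that fell to HLA-DQB1 and RFX5.

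Both genes of the peptide exchanger HLA-DM rose. HLA-DMA, read by 1 probe set with a shared-probe ID ending in _s_at, had 8.34, 8.40 and 8.39 on Dll4-Fc, against 7.40, 7.56 and 6.95 in untreated cells. All Dll4-Fc arrays lay above the untreated ones, of which replicate 3 was the lowest. The difference was 1.07 ± 0.14 (2.11-fold, adjusted p = 0.0017), or 0.90 without that array in the fit over genes. HLA-DMB, its partner, had 7.43, 7.61 and 7.63 on Dll4-Fc, against 6.45, 5.96 and 6.34 in untreated cells. The groups did not overlap here either, and the difference of 1.31 ± 0.13 (2.47-fold, adjusted p = 0.000353) was the largest among the 29 probe sets. The responses of these partners differed by -0.23 (HLA-DMA minus HLA-DMB, 2-sided exact permutation p = 0.6, adjusted 0.6), and this turned to 0.04 without untreated replicate 2.

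HLA-DOA, the alpha chain of the DM inhibitor, did not pass the test. Its brightest probe set had 6.99, 7.07 and 6.90 on Dll4-Fc, against 6.91, 7.01 and 7.02 in untreated cells, and the groups overlapped. The difference was 0.01 ± 0.07, with a 95% interval of -0.16 to 0.17 (adjusted p = 0.977). All 5 of its probe sets overlapped between the groups, with differences from -0.14 to 0.01. Within an array HLA-DMA exceeded HLA-DOA by 1.39 ± 0.08 on Dll4-Fc and by 0.32 ± 0.34 in untreated cells (SD, n = 3 arrays each; 2-sided exact permutation p = 0.1, the smallest possible). This probe set also carries an ID ending in _x_at. Of those not shared between transcripts, the brightest gave -0.07 ± 0.15 (adjusted p = 0.824).

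CD74, the invariant chain, had 9.49, 9.53 and 9.50 on Dll4-Fc, against 8.63, 8.63 and 8.50 in untreated cells. The Dll4-Fc arrays were nearly level with each other and clear of the untreated ones. The difference was 0.92 ± 0.07 (1.89-fold, adjusted p = 7.06e-05). The other CD74 probe sets lay at 5.66 ± 0.06 and 5.22 ± 0.15 on Dll4-Fc and at 5.65 ± 0.09 and 5.07 ± 0.19 in untreated cells (SD, n = 3). Both lay below the median signal and overlapped between the groups, with differences of 0.00 ± 0.07 and 0.15 ± 0.11. The rise of CD74 is thus read by 1 of 3 probe sets, and as the mean of all 3 it was 0.36 (adjusted p = 0.00237 over genes). HLA-DRA and CD74 responded by amounts that differed by 0.19 (2-sided exact permutation p = 0.1, the smallest possible), and by 0.71 with probe sets averaged.

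CIITA, the master regulator, was dim in all samples. Its probe set with the highest mean had 4.85, 5.27 and 4.71 on Dll4-Fc, against 5.00, 4.83 and 4.92 in untreated cells. Dll4-Fc replicate 2 was the highest and replicate 3 the lowest of all 6, so the groups overlapped. The difference was 0.03 ± 0.14, with a 95% interval of -0.29 to 0.35 (adjusted p = 0.933). The other 2 probe sets gave 0.23 ± 0.10 (adjusted p = 0.186) and 0.08 ± 0.08 (adjusted p = 0.597), also with overlap. The 3 lay between the 33.1 and 37.3 percentiles of all probe sets by mean signal, so no change of CIITA was detectable at this signal, which does not show that there was none.

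RFX5, the DNA-binding subunit of RFX, was bright and fell slightly. It had 10.96, 10.96 and 11.01 on Dll4-Fc, against 11.31, 11.34 and 11.32 in untreated cells. The groups were separate and each was tight. The difference was -0.34 ± 0.06 (adjusted p = 0.00613), and the second RFX5 probe set, at 8.63 ± 0.03 on Dll4-Fc and 8.97 ± 0.06 in untreated cells (SD, n = 3), gave -0.34 ± 0.07 (adjusted p = 0.00944).

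Values from here on come from the fit with 1 probe set per gene. Of 6 measured genes of RFX, NF-Y and CREB, which bind the class II promoter, 0 rose and 2 fell, with a median of -0.14. Over all genes 11.6% rose and 15% fell. RFXAP, a further RFX subunit, fell by 0.59 ± 0.09 on the log2 scale (adjusted p = 0.00284), with 7.81 ± 0.16 on Dll4-Fc and 8.40 ± 0.09 in untreated cells (SD, n = 3). NFYA, a subunit of NF-Y, fell by 0.23 ± 0.05 (adjusted p = 0.0142), a call lost without untreated replicate 2 (adjusted p = 0.0571) or Dll4-Fc replicate 1 (adjusted p = 0.0586). As the mean of its probe sets NFYA gave -0.13 (adjusted p = 0.239). RFXANK, the remaining RFX subunit, differed by 0.09 ± 0.06 (adjusted p = 0.358). Against shares over all genes of 11.6% higher and 15% lower, which also stand beside the counts that follow, 0 of 8 coactivators and remodellers used by CIITA rose and 1 fell, which is near the share of all genes that fell. That gene was SMARCA4, an ATPase that remodels chromatin, at -0.24 ± 0.05 (adjusted p = 0.0154), and it gave 0.26 (adjusted p = 0.0462) without shared probe sets. Its call was also lost without untreated replicate 2 (adjusted p = 0.0577) and without replicate 1 (0.0682) or replicate 2 (0.0631) of Dll4-Fc.

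Of 10 measured genes that induce CIITA or carry the interferon gamma signal, 5 rose and 0 fell, with a median of 0.27. IFNGR1, the ligand-binding interferon gamma receptor chain, had 12.36 ± 0.06 on Dll4-Fc and 10.78 ± 0.04 in untreated cells (SD, n = 3), a rise of 1.58 ± 0.06 (2.99-fold, adjusted p = 1.88e-06). Its partner IFNGR2 rose by 0.57 ± 0.06 (adjusted p = 0.000423), and the transcription factor IRF2 by 0.44 ± 0.08 (adjusted p = 0.00739). IRF1, which acts at a CIITA promoter, rose by 0.34 ± 0.09 (adjusted p = 0.028), a call lost when untreated replicate 2 (adjusted p = 0.07) or 3 (0.0615) was left out, or replicate 1 (0.0959) or 2 (0.0675) of Dll4-Fc. SPI1, the myeloid factor PU.1, rose by 0.31 ± 0.06 (adjusted p = 0.00704). IFNG itself differed by 0.04 ± 0.12 at a signal near 4.1 in both groups, below the median.

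Of 10 known repressors of CIITA or of class II genes, 2 rose and 4 fell, with a median of -0.17; 2 of 10 is near the 11.6% of all genes that rose, and 15% of all genes fell. PRDM1, which represses CIITA in plasma cells, had 9.63 ± 0.13 on Dll4-Fc and 7.31 ± 0.02 in untreated cells (SD, n = 3), a rise of 2.32 ± 0.07 (4.98-fold, adjusted p = 1.11e-06). TGFB1, a cytokine that dampens class II expression, rose by 0.51 ± 0.09 (adjusted p = 0.00544), but gave 0.01 (adjusted p = 0.979) without shared probe sets. SIN3A, a corepressor scaffold, fell by 0.42 ± 0.08 (adjusted p = 0.00868) and HDAC1, a histone deacetylase, by 0.32 ± 0.06 (adjusted p = 0.00578). HDAC2 and the DNA methyltransferase gene DNMT1 fell by 0.25 ± 0.06 each (adjusted p = 0.0152 and 0.0157), and both calls were lost without untreated replicate 2 (0.0624 and 0.0645) and without replicate 1 (0.0678 and 0.0544) or replicate 2 (0.0597 and 0.0639) of Dll4-Fc.

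Of 10 measured genes for cutting the invariant chain and antigens, 9 rose and 1 fell; 5 of the 9 rose at least 2-fold, with a list median of 1.02 beside -0.01 for all genes. CTSL, the protease cathepsin L, had 12.62 ± 0.08 on Dll4-Fc and 10.22 ± 0.06 in untreated cells (SD, n = 3), a rise of 2.40 ± 0.07 (5.29-fold, adjusted p = 4.97e-07). CTSH, an aminopeptidase, rose by 1.84 ± 0.05 and CTSD, an aspartic protease, by 1.57 ± 0.12. CTSB rose by 1.48 ± 0.07. CTSS, the main protease for CD74 in B cells and dendritic cells, rose by 0.81 ± 0.05 (1.75-fold, adjusted p = 3.84e-05). The gene that fell was CST3, which encodes the cathepsin inhibitor cystatin C, at -0.58 ± 0.06 (adjusted p = 0.000563), and as the mean of its probe sets it gave -0.07 (adjusted p = 0.567). SPPL2A, a protease of the endosomal membrane, rose by 0.34 ± 0.06 (adjusted p = 0.00442) but gave 0.00 (adjusted p = 0.991) as the mean of its probe sets. With probe sets averaged 8 of the 10 rose and 0 fell, and without shared probe sets 6 of 7 rose. Of 10 genes of class II traffic and turnover 4 rose and 0 fell. MARCHF1, a ubiquitin ligase that sends class II to lysosomes, rose by 1.65 ± 0.12 (3.14-fold, adjusted p = 7.39e-05), and CD83, which opposes that ligase, by 1.71 ± 0.13 (3.27-fold, adjusted p = 9.54e-05). CD82, a tetraspanin, rose by 0.28 ± 0.06 (0.21 without shared probe sets, adjusted p = 0.0543), and AP1B1, an adaptor subunit, by 0.23 ± 0.05 (adjusted p = 0.017), a call lost without replicate 1 (0.0605) or replicate 2 (0.0565) of Dll4-Fc.

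**Figure D3:**
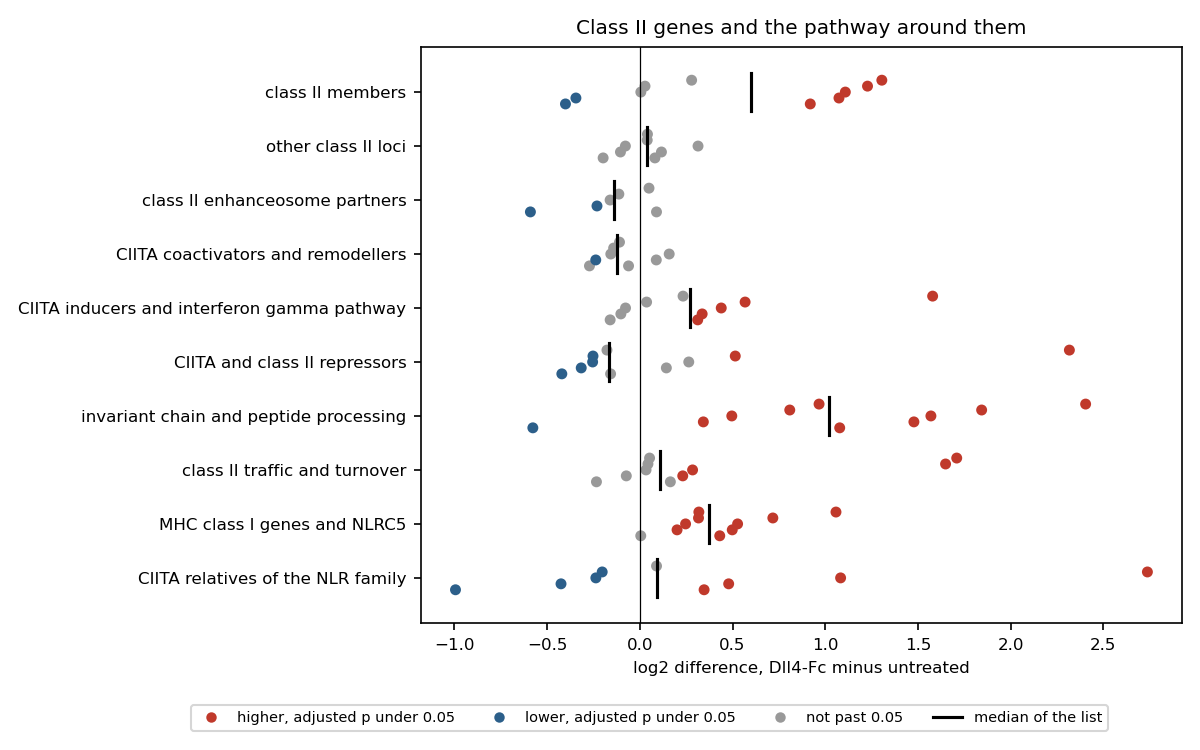
Difference between Dll4-Fc and untreated arrays on the log2 scale for each gene (points, coloured by limma's call) of the 10 members and of 9 lists around them, with each list's median as a black line. The list of invariant chain and peptide processing has the highest median of those drawn, 1.02, and the lists of promoter-binding partners and coactivators have medians of -0.14 and -0.13.

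Of 10 measured genes of MHC class I presentation, 9 rose and 0 fell, with a median of 0.37, and 5 of 6 rose without shared probe sets. When 1 array was left out 7 to 9 rose, and the calls lost were of B2M and HLA-C. TAP1, a subunit of the peptide transporter, rose by 1.06 ± 0.07 (2.08-fold, adjusted p = 3.62e-05), HLA-E by 0.72 ± 0.07, TAP2 by 0.53 ± 0.05 and HLA-F by 0.50 ± 0.06. NLRC5, the relative of CIITA that regulates class I genes, had 8.68 ± 0.04 on Dll4-Fc and 8.25 ± 0.15 in untreated cells (SD, n = 3), a rise of 0.43 ± 0.08 (adjusted p = 0.00685). Among 9 other NLR family genes, to which CIITA belongs by structure, 4 rose and 4 fell. With the replicate number as a block 3 rose and 2 fell. When 1 array was left out 3 to 4 rose and 3 fell, and the calls lost were of NLRP12 and NOD1. NLRC4, an inflammasome sensor, rose by 2.74 ± 0.19 and NAIP, its partner, by 1.08 ± 0.07, while NLRC3 fell by 0.99 ± 0.07 and NOD2, a peptidoglycan sensor, rose by 0.48 ± 0.09.

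Markers were compared with the labelled cell type. Of 11 measured markers of monocytic THP1 cells 7 rose and 3 fell. Without shared probe sets 5 of 10 rose and 2 fell. There ITGAM, which rose by 1.71 ± 0.09 in a shared probe set, gave -0.12 (adjusted p = 0.553). CD14 rose most, by 5.64 ± 0.20 (49.9-fold, adjusted p = 1.8e-06). The lysozyme gene LYZ lay at 13.87 ± 0.12 on Dll4-Fc and 11.87 ± 0.09 in untreated cells (SD, n = 3). Those that fell were MPO (-0.79 ± 0.11), KMT2A (-0.56 ± 0.08) and CEBPA (-0.21 ± 0.06). The call of CEBPA was lost with the replicate number as a block (adjusted p = 0.12), with median centring (0.0719) and without shared probe sets (0.0626). It was also lost without untreated replicate 1 (0.131) or 2 (0.13), and without replicate 1 (0.14), 2 (0.127) or 3 (0.0703) of Dll4-Fc. The summed linear intensity of the monocytic list was 24399 to 26494 on Dll4-Fc and 11271 to 11883 in untreated cells, and most of that rise lay in LYZ. Of 8 dendritic cell markers 6 rose, led by CD1C at 3.67 ± 0.09 and CD209 at 2.43 ± 0.09. Their summed linear intensity was 3003 to 3135 on Dll4-Fc and 1259 to 1395 in untreated cells, and XCR1 and CCR7 lay below the median signal without a call. Of 6 B cell markers 1 rose, PAX5 at 0.60 ± 0.10 (adjusted p = 0.0039), while MS4A1 and CR2 lay below the median signal and CD79A differed by -0.08 ± 0.13. The summed intensity of that list was 420 to 479 on Dll4-Fc and 376 to 390 in untreated cells. Of 6 T cell markers 0 passed limma's test at an adjusted or unadjusted p under 0.05, with a summed intensity of 217 to 232 on Dll4-Fc and 211 to 226 in untreated cells. Of 7 fibroblast, epithelial and endothelial markers 1 rose, PECAM1, which monocytes also express, and 6 were not called. The summed intensity of that list was 5250 to 5443 on Dll4-Fc and 3637 to 3946 in untreated cells. Most of this sum was PECAM1 itself, at 12.26 ± 0.02 on Dll4-Fc and 11.71 ± 0.07 in untreated cells (SD, n = 3). The part of these markers in the class II results was not tested.

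Other genes with a pattern like that of HLA-DRA were ranked by the root mean square difference of their log2 signals over the 6 arrays, after subtracting each gene's untreated mean. The 5 nearest were EVI2A (0.027), SERTAD1 (0.037), DOK2 (0.046), SDC2 (0.047) and IL16 (0.055), with differences between the groups of 1.08 to 1.12.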

How the data were processed

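Values deposited by the authors are intensities on a linear scale, where the planned test had assumed log2. RMA is named in the submitters' processing notes, with no version. From each sample 5 ng of RNA was amplified and biotin was added to the cDNA, per the labels' protocols. Array medians were 50.6 to 52.7. The number of arrays limits the precision, with a median standard error of 0.086 on the log2 scale.

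Intensities were log2 transformed and 62 control probe sets left out. Of 54613 probe sets 41091 had 1 symbol, 1801 several and 11721 none in the platform annotation. RefSeq (GRCh38.p14) changed 0 symbols. limma 3.58.1 in R 4.3.3 (lmFit, eBayes, 2-sided, 4 residual degrees of freedom) was fitted over all probe sets and over 19775 genes, each by its probe set with the highest mean. The limma fit over probe sets was tried on simulated arrays, with independent noise and shifts of known size added to some probe sets. The choice of probe set for a gene, the scaling and the shared probe sets were not tested in this way. The SD of log2 differences over all probe sets was 0.387 to 0.433 for pairs of arrays from different groups and 0.161 to 0.231 for pairs from 1 group.

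The members and gene lists were chosen with earlier results of these data known. Named are all members, up to 4 passing genes of each list with the largest difference, a few genes fixed by name, and the 5 nearest genes by pattern to HLA-DRA; those nearest to CIITA are left out, since CIITA was dim with no detectable change. SPI1, SPPL2A, IFNG, CST3, HDAC2, DNMT1, HLA-DOB, HLA-DRB1, HLA-DQA1 and the markers without a call were named after their values were seen. So were B2M, HLA-C, NOD1, NLRP12, MPO, KMT2A and CEBPA. Alternatives were cyclic loess, median centring, the replicate number as a block, a trended robust prior, array weights, no dim features, no shared probe sets, the mean of a gene's probe sets and leaving out each array. Promoter letters were searched on both strands.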

Additional observations from a re-analysis of the deposited data

How the results depend on the processing

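Among the 10 member genes, 132 of 136 values under the alternatives kept their direction and their side of the threshold; the others were 1 call lost, HLA-DQB1 without shared probe sets (-0.31, adjusted p = 0.23), and 3 gained, all of HLA-DPB1 (0.31 without shared probe sets, 0.29 with its probe sets averaged and 0.43 without untreated replicate 1). HLA-DPA1, HLA-DPB1 and CIITA gave no value without dim features, and HLA-DMA none without shared probe sets, since they were left out there. Among the 29 probe sets 340 of 353 values held. The weaker of the 2 HLA-DQB1 probe sets that fell lost its call with the replicate block (adjusted p = 0.0653) and when replicate 1 or 2 of either group was left out (0.0740 to 0.0844), and the brightest HLA-DQB1 probe set with no shared-probe ID passed with array weights (-0.48, adjusted p = 0.033). CD74 ranged from 0.36 to 0.99 and HLA-DPA1 from 0.73 to 1.38, both lowest when a gene's probe sets were averaged. With the shared ones left out, 4 member probe sets rose and 1 fell, and 1 member gene fell, with fewer probe sets tested. Leaving out 1 array, 7 to 8 member probe sets rose and 3 to 5 fell, and 5 to 6 member genes rose and 2 fell.

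In the other lists, 33 genes were called higher and 12 lower on Dll4-Fc. The 12 became 6 with the replicate block, 19 with array weights, and 7 to 14 when 1 array was left out, lowest without untreated replicate 2 or replicate 1 of Dll4-Fc; the cause was not tested. Without shared probe sets SMARCA4 turned to 0.26, and ITGAM, a monocytic marker called higher, to -0.12. Same-numbered arrays did not deviate together (correlations of -0.02, -0.14 and -0.13), so the replicate numbers were not taken as pairs. Cyclic loess gave a median difference over all probe sets of 0.00, beside -0.02 as reported.

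The responses of paired members kept their sign with the exception of HLA-DMA and HLA-DMB (-0.45 to 0.04 when 1 array was left out). Dim probe sets, all 3 of CIITA and both of HLA-DPB1, limit what can be seen.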
